A study of Mus musculus with 30 samples.

Results

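Brown adipose tissue (BAT) was compared with inguinal white adipose tissue (iWAT) after 24 h at 6 °C, across all genes. The 10 libraries, 5 of BAT and 5 of iWAT, were chosen by their tissue and treatment labels from 30 libraries in all. The mice were male C57BL/6J of 7 to 8 weeks, kept 5 to a cage with free access to food, and the labels name no transgene and no drug. The other 20 libraries, 5 in each group, were BAT and iWAT after 6 h at 6 °C and BAT and iWAT at 22 °C, while the housing note gives a room of 24 ± 2 °C. PolyA RNA of whole tissue was sequenced, so fewer cells of a type and less RNA per cell cannot be told apart. The labels do not say that the replicates of a group came from separate mice, and p-values therefore measure the spread between libraries.

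Brown adipocytes burn fuel to make heat. Noradrenaline from sympathetic nerves raises cyclic AMP in them, lipolysis frees fatty acids, and the uncoupling protein UCP1 lets protons flow back across the inner mitochondrial membrane without making ATP. White adipocytes store triglyceride and secrete hormones such as leptin and adiponectin, and in the cold the inguinal depot can form beige adipocytes that carry UCP1.

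The libraries held 25.7 to 39.7 M assigned counts in BAT and 30.7 to 38.3 M in iWAT (M, 1000000). Genes encoded by the mitochondrial genome took 24.6 ± 0.310% of counts in BAT and 13.5 ± 0.961% in iWAT (SD, n = 5 each; exact two-sided permutation p = 0.00794, the smallest that 5 against 5 libraries allow). The tissue labels matched their defining markers: the summed level of 5 brown adipocyte markers was 16635 to 19990.5 CPM (counts per 1000000 assigned counts after scaling) in BAT and 2791 to 4604 CPM in iWAT. The sum of 5 white adipocyte markers was 487 to 738 CPM in BAT and 2101 to 3044 CPM in iWAT, with Tcf21 at 0 in both. Most of the brown sum came from Ucp1, and 4 of its 5 markers were called higher in BAT, Lhx8 being the exception. Most of the white sum came from Adipoq, and all 4 tested markers were called lower in BAT. BAT libraries 3, 4 and 5 also held skeletal muscle RNA, with 8 muscle markers summing to 4.68, 2.19, 1169, 711 and 3937 CPM in BAT libraries 1 to 5 and to 1.96 to 5.60 CPM in iWAT. All 24 tested genes of the skeletal muscle list were higher in BAT (median log2 difference 8.90, or 8.59 with genes at 0 in iWAT set to their lower bound). Without those 3 libraries 1 of the 24 was called and the median was -0.26, so muscle genes are not described below as genes of BAT.

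**Figure D1:**
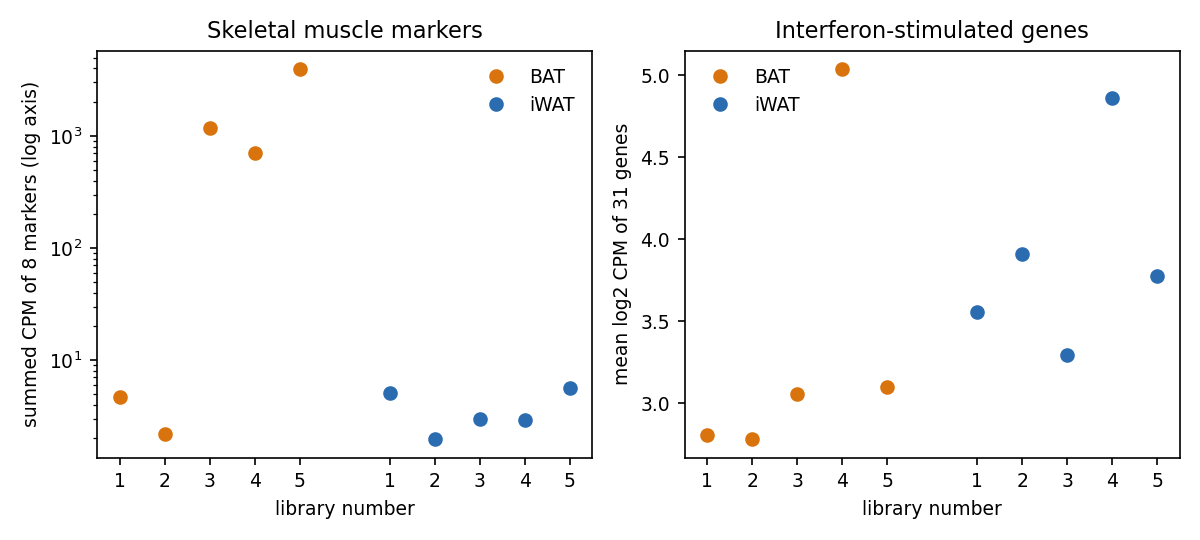
Left, summed CPM of 8 skeletal muscle markers (log axis) in each library after 24 h at 6 °C; right, mean log2 CPM of 31 interferon-stimulated genes; BAT libraries 1 to 5 in orange, iWAT libraries 1 to 5 in blue. BAT libraries 3, 4 and 5 stand at 1169, 711 and 3937 CPM of muscle markers, and library 4 is the highest of each depot for interferon-stimulated genes.

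A gene was called when edgeR's quasi-likelihood test gave it a Benjamini-Hochberg adjusted p under 0.05 over the 14089 genes tested. Each log2 difference is BAT over iWAT, so positive values mean higher in BAT, and is given ± its approximate standard error, while CPM and FPKM of a group are given as mean ± SD (n = 5). By this rule 4452 genes (31.6%) were higher in BAT and 4506 (32.0%) were lower, with a median of -0.02 over all genes. At a log2 difference of 1 or more, 1588 genes (11.3%) were higher in BAT and 2183 (15.5%) were lower. For 6623 genes (47.0%) the 5 BAT and 5 iWAT libraries did not overlap. The split depended on scaling: upper-quartile factors gave 3699 higher and 5448 lower (median of all genes -0.15), and the deposited FPKM (counts per kilobase and 1000000 counts) gave 2134 higher and 7800 lower (median -0.23 with a pseudocount of 1 and -0.40 with 0.1). Without BAT libraries 3, 4 and 5 the counts were 3706 and 3939. The counts and medians of each gene group stand beside these shares and this median of all genes.

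Among the genes with the largest differences were genes of position in the body. Zic1 (ENSMUSG00000032368), a zinc finger transcription factor of brown fat and dorsal somite, was measured at 21.3, 14.9, 26.8, 22.9 and 8.69 CPM in BAT libraries 1 to 5 and at 0 CPM in all 5 iWAT libraries. BAT library 5 was the lowest, and no iWAT library had a single count, so Zic1 was at least 1289-fold higher in BAT (floor of 3 counts over the 5 iWAT libraries). Hoxa10 (ENSMUSG00000000938), a homeobox gene of posterior position, showed the reverse, with 0 CPM in all 5 BAT libraries and 15.5, 9.95, 14.9, 11.6 and 10.6 CPM in iWAT libraries 1 to 5. It was at least 570.3-fold lower in BAT. Hoxc10 had 1 count over all BAT libraries, in library 5, and 22.4, 19.6, 21.4, 17.9 and 19.4 CPM in the iWAT libraries, a ratio of iWAT to BAT of 2760.4 (95% counting interval 495 to 109057). Hoxc9 likewise had 1 count in BAT, in library 4, and 12.9, 10.4, 10.96, 9.09 and 9.67 CPM in iWAT (ratio 1449, 259.7 to 57239). These 4 genes thus separated the depots almost as present against absent.

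The Hox genes, whose order along each cluster matches the head-to-tail order of their expression domains in the embryo, differed in both directions. Of 26 tested, 6 were higher in BAT and 14 lower, with a median of -0.84. The genes higher in BAT were from the anterior end of their clusters: Hoxa5 (2.53 ± 0.12), Hoxc4 (2.25 ± 0.13), Hoxc5 (1.66 ± 0.14), Hoxa4 (1.63 ± 0.16), Hoxa2 (0.97 ± 0.29) and Hoxb2 (0.76 ± 0.20). Hoxa5 was measured at 34.2, 35.7, 29.98, 26.5 and 35.2 CPM in the BAT libraries, against 5.62, 6.36, 5.97, 3.88 and 6.19 CPM in the iWAT libraries. Hoxc4 was measured at 29.6, 29.8, 29.9, 26.3 and 31.2 CPM in the BAT libraries, against 5.45, 5.80, 8.25, 6.03 and 5.25 CPM in the iWAT libraries. Neither gene overlapped between the depots. Hoxc8 turned the other way, at 4.59, 7.59, 5.58, 5.52 and 8.73 CPM in the BAT libraries, against 88.6, 77.3, 76.1, 71.9 and 90.9 CPM in the iWAT libraries, a log2 difference of -3.66 ± 0.32 (adjusted p = 8.12e-11). Hoxa9 averaged 0.813 ± 0.457 CPM in BAT and 18.8 ± 9.19 CPM in iWAT (-4.53 ± 0.43), without overlap. Lower in BAT were also Hoxb7 (-2.09 ± 0.26), Hoxb8 (-2.04 ± 0.19), Hoxb5 (-1.42 ± 0.26), Hoxa7 (-1.37 ± 0.22), Hoxc6 (-0.75 ± 0.14) and Hoxb3 (-0.61 ± 0.15). Hoxb9 (-1.43 ± 0.50), Hoxd4 (-1.25 ± 0.34) and Hoxb6 (-0.83 ± 0.26) passed as well, all at under 4 CPM, but not without BAT libraries 3, 4 and 5 (-1.15, -0.87 and -0.78). Hoxa3 (0.02 ± 0.17), Hoxb4 (-0.03 ± 0.11), Hoxd8 (-0.39 ± 0.25), Hoxa6 (-0.86 ± 0.61) and Hoxd9 (-0.98 ± 0.52) did not pass. Hoxd9 passed without BAT libraries 3, 4 and 5 (-2.20, adjusted p = 0.00982 by edgeR). Of the 26 Hox genes, 0 had a larger and 1 a smaller BAT-over-iWAT difference at 24 h than at 22 °C, the single gene being Hoxa4 (2.83 at 22 °C, change -1.20 ± 0.22).

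**Figure D2:**
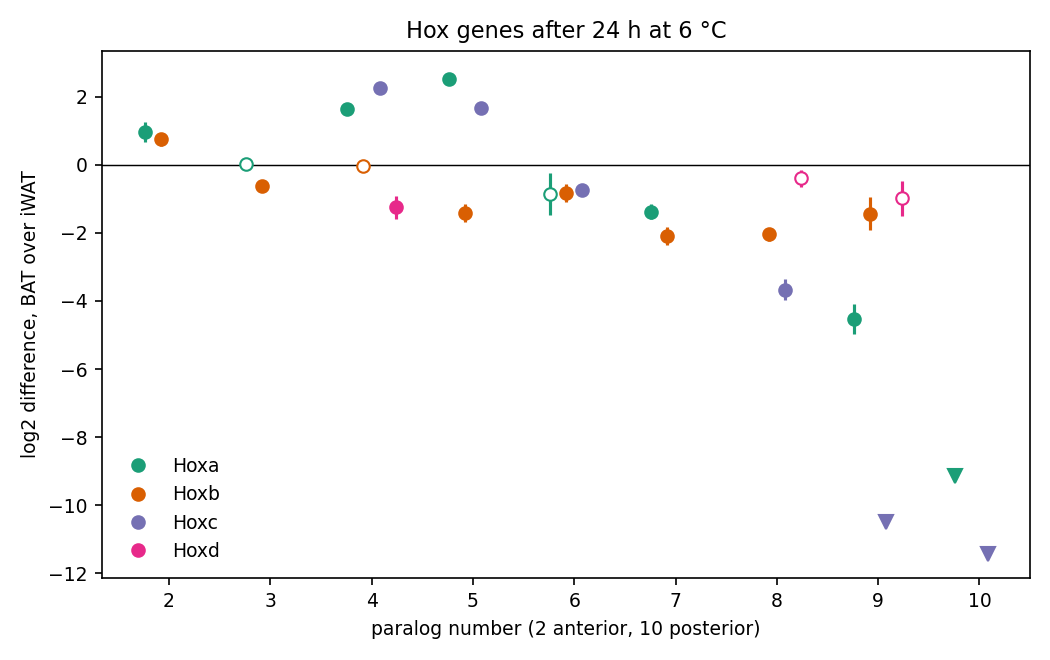
Log2 difference of BAT over iWAT (y axis) after 24 h at 6 °C for 25 tested Hox genes, by position in the cluster (x axis, paralog number 2 to 10) and by cluster (colour). Bars are approximate standard errors, filled points passed the test, and triangles are genes with 0 or 1 count in BAT, drawn at their bound or counting ratio. Paralogs 2, 4 and 5 hold all the genes higher in BAT, with Hoxd4 and Hoxb5 lower there, and every called gene from paralog 6 up is lower in BAT.

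Regulators of the brown lineage were more often higher than lower in BAT, by a margin that depended on scaling. Among 34 tested regulators of brown fat, 20 were higher in BAT and 6 lower (median 0.68). On the FPKM scale with a pseudocount of 1 the counts were 16 and 12 (median 0.17). Ppargc1a, the coactivator that drives mitochondrial biogenesis, was measured at 396, 547, 271, 815 and 580.2 CPM in the BAT libraries, against 104, 101, 65.8, 151 and 152 CPM in the iWAT libraries (log2 2.18 ± 0.37, adjusted p = 1.01e-05). Its lowest BAT library, number 3, stood above the highest iWAT library. The nuclear receptors Esrrb (3.23 ± 0.42), Esrrg (1.66 ± 0.33), Ppara (1.60 ± 0.36), Esrra (1.37 ± 0.13) and Pparg (0.95 ± 0.09), which activate genes of mitochondria and of fatty acid use, were all higher in BAT. Prdm16, a determinant of brown adipocyte fate, averaged 38.2 ± 3.98 CPM in BAT and 18.7 ± 2.48 CPM in iWAT (1.03 ± 0.17), and Ebf2, its partner in committed precursors, differed by 0.46 ± 0.11. Lhx8, a LIM homeobox gene used as a brown fat marker, had 6.25, 2.61, 5.86, 3.61 and 1.61 CPM in BAT and 3.37, 1.24, 4.45, 1.36 and 2.15 CPM in iWAT, overlapped and did not pass (0.67 ± 0.37). Lower in BAT were Cebpa (-1.02 ± 0.15) and Cebpd (-1.32 ± 0.36), along with Zbtb16 (-1.19 ± 0.39) and Tbx15 (-0.92 ± 0.32). Without BAT libraries 3, 4 and 5 the last 2 differed by -2.10 and -1.64. Irf4, a transcription factor that responds to cold and fasting in adipocytes, was measured at 14.4, 78.2, 18.0, 28.8 and 37.2 CPM in the BAT libraries, against 14.7, 372, 95.05, 176 and 169.6 CPM in the iWAT libraries. The groups overlapped, with iWAT library 1 close to the lowest BAT library. The difference was -2.23 ± 0.53 (adjusted p = 0.000563). At 22 °C Irf4 stood at 37.8 CPM in BAT and 17.2 CPM in iWAT. The difference between the 2 depot differences passed the test (-3.37 ± 0.73, adjusted p = 0.00592), though not without BAT 24 h libraries 3, 4 and 5 (-2.99, adjusted p = 0.0827).

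Genes that carry out heat production were higher in BAT even after a day of cold. Of 24 thermogenic effector genes tested, 23 were higher in BAT and 0 lower, with a median of 1.90 (mean log2 CPM of the list 8.60 to 8.75 in BAT and 6.16 to 6.86 in iWAT). Ucp1 (ENSMUSG00000031710) was measured at 15916, 13133, 14919.8, 14296 and 13688 CPM in the BAT libraries, against 3558, 2242, 2291, 3030.4 and 3909 CPM in the iWAT libraries, without overlap. The log2 difference of Ucp1 was 2.26 ± 0.67 (adjusted p = 0.00439), and per length it stood at 7484 ± 506 FPKM in BAT and 2118 ± 502 FPKM in iWAT. At 22 °C Ucp1 had averaged 11858 ± 1309 CPM in BAT and 270.4 ± 298 CPM in iWAT. Its depot difference was smaller at 24 h (change -3.20 ± 0.92 on the log2 scale, adjusted p = 0.0312, not called at -3.19 to -3.03 without BAT 24 h library 4 or iWAT 22 °C library 2, and -3.83 without iWAT 22 °C library 3). Dio2, which makes active thyroid hormone in the tissue, was measured at 668, 969, 712, 732 and 776 CPM in the BAT libraries, against 249, 191, 144, 223 and 224 CPM in the iWAT libraries (1.90 ± 0.57). The difference of Dio2 at 22 °C was 4.67 (change -2.77 ± 0.80, adjusted p = 0.0313, not called at -2.75 to -2.50 without BAT 22 °C library 2, BAT 24 h library 4, iWAT 22 °C libraries 1 or 2 or iWAT 24 h library 1, and -3.49 without iWAT 22 °C library 4). Cidea, a lipid droplet protein, averaged 3036 ± 427 CPM in BAT and 534 ± 92.4 CPM in iWAT (2.51 ± 0.42). Elovl3, which lengthens very long fatty acids, averaged 1021 ± 165 CPM in BAT and 90.1 ± 42.7 CPM in iWAT (3.50 ± 0.67). Neither gene overlapped between the depots.

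Other effectors had the same direction. The acyl-CoA thioesterase Acot11 differed by 3.68 ± 0.53, the fatty acid activating transporter Slc27a2 by 3.82 ± 0.65, the coenzyme A kinase Pank1 by 3.02 ± 0.40 and the potassium channel Kcnk3 by 1.83 ± 0.29. Gk, glycerol kinase, which lets adipocytes reuse glycerol, averaged 1717 ± 129 CPM in BAT and 464 ± 118 CPM in iWAT (1.89 ± 0.49). Fabp3, the heart-type fatty acid binding protein, averaged 2782 ± 390.1 CPM in BAT and 526 ± 217 CPM in iWAT (2.40 ± 0.76), with iWAT library 5 ahead of the other iWAT libraries at 441, 426, 362, 497 and 905 CPM for libraries 1 to 5. Bmp8b, a secreted factor that sensitises brown fat to noradrenaline, had 22.0, 13.5, 10.5, 19.3 and 17.5 CPM in BAT and 0.231, 0.140, 0.336, 0.181 and 0.862 CPM in iWAT (5.57 ± 0.43, and 6.20 without iWAT library 5). The member that did not pass was Fgf21, a stress-induced hormone, at 1.97, 0.838, 2.93, 4.77 and 1.75 CPM in BAT and 2.91, 0.513, 0.537, 5.17 and 8.67 CPM in iWAT, which overlapped (-0.53 ± 0.70, adjusted p = 0.521). Gdf15, another stress hormone, also overlapped (-0.81 ± 0.65, adjusted p = 0.279). Without BAT libraries 3, 4 and 5 the log2 difference was -1.34 for Fgf21 and -1.51 for Gdf15, and neither passed.

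**Figure D3:**
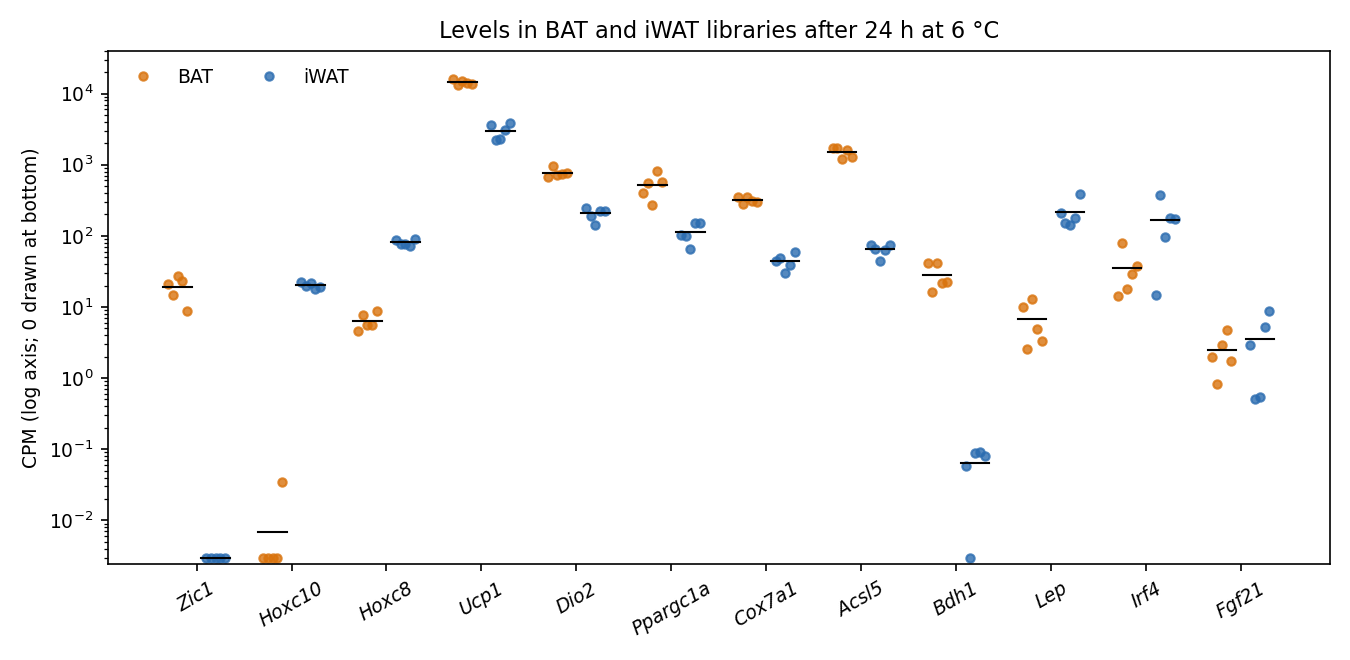
CPM on a log axis (y) of 12 genes in the 5 BAT (left, orange) and 5 iWAT (right, blue) libraries after 24 h at 6 °C. Points are libraries, bars are means, and libraries at 0 are drawn on the bottom line. Irf4 and Fgf21 overlap between depots, while Ucp1, Dio2, Zic1, Hoxc10, Lep and the others do not.

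The mitochondrial genes were higher in BAT as a group, both those encoded in the nucleus and those of the mitochondrial genome. Of 84 nuclear-encoded respiratory chain genes tested, 77 were higher in BAT and 4 lower (median 1.07), and 50 of them had a log2 difference of 1 or more. Their mean log2 CPM was 8.21, 7.98, 8.22, 8.08 and 8.13 in BAT libraries 1 to 5 and 7.24, 7.32, 6.84, 6.98 and 7.16 in iWAT libraries 1 to 5. The complex III core subunits Uqcrc1 (1.78 ± 0.15) and Uqcrc2 (1.62 ± 0.14), the complex I subunits Ndufa10 (1.60 ± 0.14) and Ndufv1 (1.57 ± 0.13), succinate dehydrogenase Sdhb (1.497 ± 0.14) and the ATP synthase beta subunit Atp5f1b (1.37 ± 0.13) were among the larger differences. Cycs, cytochrome c, averaged 2399.9 ± 148 CPM in BAT and 1072 ± 125 CPM in iWAT (1.16 ± 0.20). The 4 members lower in BAT all belonged to ATP synthase: the inhibitor Atp5if1 (-0.91 ± 0.15), the c-ring genes Atp5mc1 (-0.95 ± 0.32) and Atp5mc3 (-0.85 ± 0.13), and Atp5pf (-0.55 ± 0.16). The third c-ring gene, Atp5mc2, went the other way (0.68 ± 0.16). Without BAT libraries 3, 4 and 5 Atp5mc1 differed by -1.71.

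Isoforms of the same subunit or enzyme had unequal differences, which were not tested against each other. Cox7a1, the heart and muscle isoform of a cytochrome c oxidase subunit and a brown fat marker, was measured at 347, 281, 350.0, 309.9 and 298 CPM in the BAT libraries, against 44.4, 49.0, 29.8, 38.6 and 58.3 CPM in the iWAT libraries (2.85 ± 0.38). Its common partner Cox7a2 differed by 0.93 ± 0.17. Cox8b averaged 384 ± 36.8 CPM in BAT and 122 ± 29.4 CPM in iWAT (1.66 ± 0.29), against 368 ± 40.6 CPM in BAT and 289.7 ± 69.3 CPM in iWAT for its partner Cox8a, which did not pass (0.34 ± 0.23). Cpt1b, the muscle isoform of the enzyme that takes fatty acids into mitochondria, differed by 1.68 ± 0.38, and the liver isoform Cpt1a did not pass (0.26 ± 0.18). Among fatty acid binding proteins Fabp3 was higher in BAT (2.40 ± 0.76), and Fabp4 (-0.48 ± 0.10) and Fabp5 (-2.18 ± 0.23) were lower. Ucp3 was higher in BAT (0.86 ± 0.13), and Ucp2 did not pass (0.21 ± 0.12). The isoforms Cox6a2 (5.86 ± 1.70), Ckmt2 (9.74 ± 2.19) and Atp2a1 (10.07 ± 2.46) are also made by skeletal muscle, and without BAT libraries 3, 4 and 5 their log2 differences were -2.69, 2.46 and 0.71, none called. Leaving out 1 library moved them too, to 4.50, 8.20 and 8.92 without BAT library 5, and Cox6a2 and Atp2a1 to 6.68 and 10.76 without iWAT library 4. The partners tested in the list also included Cox4i1 (1.09 ± 0.16), Cox4i2 (1.44 ± 0.26), Cox6a1 (1.199 ± 0.23), Cox6b1 (1.41 ± 0.15), Cox6b2 (1.44 ± 0.25), Cox7a2l (0.64 ± 0.12), Slc25a4 (0.74 ± 0.13), Slc25a5 (0.80 ± 0.12), Hk1 (1.82 ± 0.16), Hk2 (1.44 ± 0.16) and Atp2a2 (1.45 ± 0.14), all higher in BAT. The calcium pump Atp2a3 was lower (-0.80 ± 0.15).

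All 13 genes of the mitochondrial genome were higher in BAT (median 1.61), from mt-Co1 (0.90 ± 0.14) to mt-Atp8 (2.44 ± 0.42, but 1.59 without BAT library 1 and 3.14 without BAT libraries 3, 4 and 5). Per length, mt-Nd1 had the highest level in BAT, with 47687 ± 1689 FPKM in BAT and 20732 ± 1029 FPKM in iWAT, and mt-Co1 the highest in iWAT, with 44456 ± 1826 FPKM in BAT and 32381 ± 2539.6 FPKM in iWAT. Mitochondrial ribosomal proteins followed, with 62 of 78 higher in BAT and 0 lower (median 0.75), led by Mrps36 (1.91 ± 0.18) and Mrpl34 (1.65 ± 0.19). On the FPKM scale with a pseudocount of 1, 42 of them were higher and 9 lower (median 0.29). The cytosolic ribosome went the other way, with 9 of 85 higher and 46 lower in BAT (median -0.32). Rps12 (-1.07 ± 0.15), Rpl39 (-1.21 ± 0.19) and Rps19 (-0.94 ± 0.16) were among its larger differences, and many ribosomal genes have near-identical pseudogenes that can share reads. Of 42 genes of mitochondrial shape, import and biogenesis 30 were higher in BAT and 2 lower, against 24 and 11 on that FPKM scale. Letmd1, a mitochondrial protein needed by brown fat (2.73 ± 0.25), Opa1, which fuses inner membranes (1.24 ± 0.12), and Tfam, which packs the mitochondrial genome (0.93 ± 0.09), were higher, and the mitophagy receptor Bnip3 was lower (-0.996 ± 0.14). In ubiquinone synthesis Coq8a averaged 684 ± 80.4 CPM in BAT and 52.4 ± 14.2 CPM in iWAT (3.71 ± 0.21), with Coq10a (2.22 ± 0.16), Coq6 (1.83 ± 0.11) and Coq9 (1.62 ± 0.12) also higher.

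Mitochondrial carriers were divided. Of 48 tested, 29 were higher and 10 lower in BAT (median 0.72). The carnitine carrier Slc25a20 (1.76 ± 0.21), the coenzyme A carrier Slc25a42 (2.05 ± 0.23), the NAD carrier Slc25a51 (1.36 ± 0.16) and Slc25a34 (2.56 ± 0.41) were higher. The dicarboxylate carrier Slc25a10, measured at 24.3, 13.6, 18.3, 27.7 and 11.9 CPM in the BAT libraries, against 293, 318, 176, 221 and 178 CPM in the iWAT libraries, was lower (-3.63 ± 0.26). The citrate carrier Slc25a1, which exports the carbon for fatty acid synthesis, was also lower (-1.62 ± 0.28) and did not pass at 22 °C (0.18, change -1.80 ± 0.39, adjusted p = 0.00542).

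Promoter sequences were read for the genes of 5 of these lists, because their members were higher in BAT together. RefSeq (GRCm38.p6) gave the 250 bases before the start site for 18 of 24 thermogenic effectors, 54 of 84 respiratory chain, 17 of 20 tricarboxylic acid cycle, 25 of 31 fatty acid oxidation and 69 of 78 mitochondrial ribosome genes. The palindromic cyclic AMP response element TGACGTCA was found in 1, 5, 2, 0 and 2 of them in that order, against 310 of 10913 tested genes with a promoter (2.84%) and 1.77% of all 27025 genes in the table. The other motifs, 3 in all, were searched on both strands: the estrogen-related receptor element CAAGGTCA (1.18% of tested genes), the nuclear respiratory factor 1 core CGCATGCG (3.27%) and the GABP element CCGGAAGT (6.29%). The estrogen-related receptor element was in 1 of the 54 respiratory chain genes (Ndufs5) and 2 of the 69 mitochondrial ribosome genes (Mrps15 and Mrps21, 2.9%). None of the 18 thermogenic effectors, 17 tricarboxylic acid cycle genes or 25 fatty acid oxidation genes held it in this window. The nuclear respiratory factor 1 core was in 4 respiratory chain genes (Cox6a1, Cycs, Ndufa11 and Ndufa8) and in 7 of the 69 mitochondrial ribosome genes (10.1%). It was also in 2 of the 25 fatty acid oxidation genes (8.0%), 1 of the 17 tricarboxylic acid cycle genes and none of the 18 thermogenic effectors. In the mitochondrial ribosome list 10 of the 69 genes held the GABP element (14.5%). The GABP element was in 2 of the 54 respiratory chain genes (3.70%), 1 of the 18 thermogenic effectors (5.56%), 3 of the 25 fatty acid oxidation genes (12.0%) and none of the 17 tricarboxylic acid cycle genes. A match is a run of letters and was not tested as a bound site.

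Shown in lower case are the 250 bases before the start site, 5′ to 3′ on the gene's own strand, of 3 genes that were higher in BAT and hold the cyclic AMP response element, which is in capitals. Dio2 lies on chr12:90739039-90739288 (- strand), Cycs on chr6:50566570-50566819 (- strand) and Uqcrfs1, a complex III subunit, on chr13:30545317-30545566 (- strand). The element ends 87 bases before the start site in Dio2, 161 in Cycs and 21 in Uqcrfs1.
Dio2: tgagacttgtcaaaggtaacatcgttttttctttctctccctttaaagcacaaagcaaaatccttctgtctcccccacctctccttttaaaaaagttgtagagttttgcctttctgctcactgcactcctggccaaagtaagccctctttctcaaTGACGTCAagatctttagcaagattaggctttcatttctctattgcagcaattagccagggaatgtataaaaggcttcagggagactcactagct
Cycs: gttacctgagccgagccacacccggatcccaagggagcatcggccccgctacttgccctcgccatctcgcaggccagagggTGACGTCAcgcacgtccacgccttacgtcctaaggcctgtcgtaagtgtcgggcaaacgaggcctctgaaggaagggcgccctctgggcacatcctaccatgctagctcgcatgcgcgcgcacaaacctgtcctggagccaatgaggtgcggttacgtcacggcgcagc
Uqcrfs1: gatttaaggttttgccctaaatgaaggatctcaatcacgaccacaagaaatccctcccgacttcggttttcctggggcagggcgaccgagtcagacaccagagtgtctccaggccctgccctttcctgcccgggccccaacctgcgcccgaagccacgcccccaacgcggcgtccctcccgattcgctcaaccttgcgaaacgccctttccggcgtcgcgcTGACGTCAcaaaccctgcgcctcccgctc

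Uqcrfs1 averaged 1306 ± 93.4 CPM in BAT and 543 ± 70.9 CPM in iWAT (1.27 ± 0.17), beside 1.16 ± 0.20 for Cycs and 1.90 ± 0.57 for Dio2. The depot differences of Cycs (change -0.99 ± 0.28, adjusted p = 0.0254, not called at -0.95 to -0.90 without iWAT 22 °C libraries 1 or 2) and Uqcrfs1 (change -0.76 ± 0.24, adjusted p = 0.0464) were, like that of Dio2, smaller at 24 h than at 22 °C. The change of Uqcrfs1 was not called with any 1 library left out except BAT 24 h library 1, iWAT 22 °C library 4 or iWAT 24 h libraries 3 or 4 (-0.78 to -0.67). Of the 84 respiratory chain genes tested, with or without the element, 14 changed downward since 22 °C. The part of the element in these changes was not tested.

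Genes that burn fuel in mitochondria were higher in BAT as well. In the tricarboxylic acid cycle 18 of 20 genes were higher in BAT and 1 lower (median 1.43), with mean log2 CPM of 10.01 to 10.19 in BAT and 8.64 to 8.89 in iWAT. Suclg1 (2.32 ± 0.18), Ogdh (2.06 ± 0.16) and Idh3a (1.71 ± 0.15) were among the larger differences, and citrate synthase, Cs, differed by 1.36 ± 0.13. The member lower in BAT was Pcx, pyruvate carboxylase, which feeds the cycle and lipid synthesis with oxaloacetate (-1.09 ± 0.13), and Mdh1 did not pass (0.27 ± 0.13). In fatty acid oxidation 24 of 31 were higher and 2 lower (median 1.21). The trifunctional protein genes Hadha (2.03 ± 0.21) and Hadhb (2.03 ± 0.20), the thiolase Acaa2 (2.13 ± 0.22) and the dehydrogenases Acadvl (1.96 ± 0.22) and Acadm (1.42 ± 0.17) were higher. Acsl5, an acyl-CoA synthetase, was measured at 1710.5, 1711, 1184, 1609 and 1298 CPM in the BAT libraries, against 75.1, 65.3, 44.1, 64.2 and 74.4 CPM in the iWAT libraries (4.54 ± 0.30, adjusted p = 5.24e-13). The more abundant synthetase Acsl1 did not pass (-0.03 ± 0.13). Abcd2, a peroxisomal importer of very long fatty acids, stood out in the other direction at 33.8 ± 8.05 CPM in BAT and 488 ± 44.7 CPM in iWAT (-3.85 ± 0.20), and Abcd3 was higher in BAT (1.71 ± 0.18).

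Fatty acid uptake and triglyceride genes were mixed, with 20 of 35 higher and 8 lower in BAT (median 0.45). Acss1, which activates acetate inside mitochondria, averaged 437 ± 28.3 CPM in BAT and 25.8 ± 3.63 CPM in iWAT (4.08 ± 0.26). Gpd1, which makes glycerol phosphate, averaged 12686 ± 1225 CPM in BAT and 2898 ± 602 CPM in iWAT (2.13 ± 0.17), and the acyltransferases Gpam (1.77 ± 0.16) and Agpat3 (1.88 ± 0.11) were also higher. The 2 fatty acid transport proteins went opposite ways: Slc27a2 was higher in BAT (3.82 ± 0.65), and Slc27a1 was lower at 163 ± 27.5 CPM in BAT and 946 ± 211 CPM in iWAT (-2.54 ± 0.17). Lpl, lipoprotein lipase, differed by 0.37 ± 0.11 (-0.067 on the FPKM scale), while its inhibitor Angptl4 was lower in BAT (-1.19 ± 0.15). In fatty acid synthesis 7 of 24 genes were higher and 7 lower (median 0.26, and -0.11 on the FPKM scale). Fasn, fatty acid synthase, was measured at 7246, 9587, 3721, 8047 and 5568 CPM in the BAT libraries, against 4873, 8486, 2814, 6521 and 3355 CPM in the iWAT libraries and did not pass (0.39 ± 0.27). The elongase Elovl6 (2.43 ± 0.32) and Acacb (1.34 ± 0.23) were higher in BAT. Scd1, the main desaturase, at 16285 ± 1901 CPM in BAT and 31564 ± 4112 CPM in iWAT, was lower (-0.95 ± 0.23), with malic enzyme Me1 (-1.49 ± 0.30) and Fads3 (-2.65 ± 0.19). Scd1 did not pass between depots at 22 °C (0.16, change -1.11 ± 0.33, adjusted p = 0.0347, not called at -1.10 to -1.05 without BAT 22 °C libraries 3 or 5, BAT 24 h libraries 3 or 4, iWAT 22 °C libraries 1 or 2 or iWAT 24 h libraries 2 or 4).

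In glucose uptake and glycolysis 35 of 50 genes were higher in BAT and 9 lower (median 1.16), and 31 and 7 without BAT libraries 3, 4 and 5. Pfkl (2.63 ± 0.22), Pkm (2.13 ± 0.21), Eno1 (1.92 ± 0.22), Gapdh (1.71 ± 0.21) and hexokinase Hk2 (1.44 ± 0.16), steps of glycolysis, and the insulin-responsive transporter Slc2a4 (1.24 ± 0.11) were higher. Ldhb, the lactate dehydrogenase subunit that favours lactate use, averaged 1023 ± 106 CPM in BAT and 197 ± 27.5 CPM in iWAT (2.37 ± 0.22). The monocarboxylate transporter Slc16a1 was higher in BAT (1.74 ± 0.24), and Slc16a7 was lower, at 6.25, 5.12, 7.60, 6.78 and 6.43 CPM in the BAT libraries, against 60.3, 67.9, 63.8, 60.5 and 65.4 CPM in the iWAT libraries (-3.30 ± 0.19). The muscle glycogen phosphorylase Pygm had 2.80, 2.93, 65.3, 36.2 and 179 CPM in BAT libraries 1 to 5 and followed the muscle markers (5.19 ± 1.29, 4.09 without library 5 and 0.84 without libraries 3, 4 and 5). Branched-chain amino acid breakdown had 17 of 23 genes higher and 4 lower in BAT (median 0.44, and -0.01 on the FPKM scale), with Mcee (2.48 ± 0.17) and Dbt (1.40 ± 0.12) higher and the first-step transaminases Bcat2 (-0.97 ± 0.21) and Bcat1 (-2.44 ± 0.39) lower. Bdh1, which oxidises the ketone body 3-hydroxybutyrate, was measured at 41.2, 16.3, 40.9, 21.5 and 22.6 CPM in the BAT libraries, against 0.0577, 0, 0.0895, 0.0907 and 0.0808 CPM in the iWAT libraries (8.72 ± 0.58, adjusted p = 4.92e-13).

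Components of noradrenaline signalling differed between the depots. Of 56 lipolysis and adrenergic genes 30 were higher in BAT and 17 lower (median 0.37, and -0.04 on the FPKM scale). Among beta receptors Adrb1 was higher in BAT (1.91 ± 0.29), and Adrb3 was lower (-0.58 ± 0.13). Adrb3, the main beta receptor of mouse adipocytes, was measured at 219, 218, 131, 219 and 272 CPM in the BAT libraries, against 303, 280.1, 281, 346 and 375 CPM in the iWAT libraries, with the highest BAT library below the lowest iWAT library. Adra1a, an alpha receptor that raises calcium, was higher in BAT (1.68 ± 0.17). The adenylyl cyclases divided. Adcy3 averaged 942 ± 111 CPM in BAT and 101 ± 27.9 CPM in iWAT (3.22 ± 0.35). Adcy5 averaged 4.43 ± 1.88 CPM in BAT and 99.2 ± 32.8 CPM in iWAT (-4.47 ± 0.35). Gnas, which encodes the stimulatory G protein subunit, was measured at 4061, 3713, 3761, 3761 and 3559.5 CPM in the BAT libraries, against 733, 639.9, 609.7, 669 and 762 CPM in the iWAT libraries (2.47 ± 0.11). The inhibitory Gnai1 was lower (-1.56 ± 0.12).

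The antilipolytic receptors for lactate, Hcar1 (5.97 ± 1.74 CPM in BAT and 114 ± 24.0 CPM in iWAT; -4.24 ± 0.28), and for hydroxybutyrate, Hcar2 (-5.03 ± 0.31), were far lower in BAT. The short-chain fatty acid receptor Ffar2 was lower too, at 2.59, 0.792, 2.81, 1.91 and 1.24 CPM in the BAT libraries, against 74.8, 58.7, 70.1, 62.3 and 70.5 CPM in the iWAT libraries (-5.15 ± 0.30). Both Hcar genes had smaller differences at 22 °C (changes -1.91 ± 0.35 and -1.91 ± 0.39, adjusted p = 0.00153 and 0.00336). The lipase genes themselves stood closer: Pnpla2 did not pass (0.13 ± 0.14, but -0.31 and called on the FPKM scale), Lipe was lower in BAT (-0.50 ± 0.07) and Mgll higher (0.62 ± 0.09). Among coats of lipid droplets Plin5 (1.58 ± 0.28) and Plin2 (0.97 ± 0.18) were higher in BAT, and Plin1 (-0.43 ± 0.09) and Plin4 (-2.29 ± 0.15) lower.

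White adipocyte genes and hormones were mostly lower in BAT. Of 29 white and beige adipocyte markers 5 were higher in BAT and 20 lower (median -1.57), and of 45 secreted factors 9 were higher and 22 lower (median -0.66). Lep, the satiety hormone leptin, was measured at 9.92, 2.56, 12.8, 4.94 and 3.33 CPM in the BAT libraries, against 213, 152, 142, 177 and 385 CPM in the iWAT libraries (-4.99 ± 0.48, adjusted p = 5.07e-10). Adipoq, adiponectin, averaged 551 ± 103 CPM in BAT and 2140.1 ± 269.8 CPM in iWAT (-1.96 ± 0.18). Retn, resistin, averaged 69.2 ± 21.0 CPM in BAT and 1079.5 ± 164 CPM in iWAT (-3.96 ± 0.28). Cfd, the complement protease adipsin, averaged 500.1 ± 167 CPM in BAT and 5470.0 ± 1604 CPM in iWAT (-3.45 ± 0.31). Sncg (-4.92 ± 0.33), the homeobox gene Shox2 (-3.29 ± 0.43), the amino acid transporter Slc7a10 (-3.82 ± 0.26) and angiotensinogen, Agt (-2.47 ± 0.60), were lower in BAT. Nnat, an imprinted gene, had 20.8, 3.82, 44.0, 13.7 and 12.5 CPM in BAT and 751, 415, 748, 595 and 1136 CPM in iWAT (-5.26 ± 0.58, and -5.90 without BAT libraries 3, 4 and 5). The beige markers Tbx1 (-4.88 ± 0.73) and Tmem26 (-4.37 ± 0.87) were lower in BAT at under 2 CPM in both depots, and Tmem26 differed by -7.20 without BAT libraries 3, 4 and 5. Igf1, a growth factor, averaged 18.6 ± 2.70 CPM in BAT and 221 ± 42.0 CPM in iWAT (-3.57 ± 0.22).

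Among secreted factors higher in BAT was Ptgds, a prostaglandin D synthase, at 34.9, 36.2, 51.1, 43.2 and 29.7 CPM in the BAT libraries, against 1.27, 0.513, 0.112, 0.295 and 0.700 CPM in the iWAT libraries (6.12 ± 0.46). The kininogen gene Kng2 averaged 245 ± 20.9 CPM in BAT and 11.9 ± 5.24 CPM in iWAT (4.37 ± 0.54). The acyl amino acid enzyme Pm20d1 (2.65 ± 0.24) and Nampt, which makes an NAD precursor (1.17 ± 0.11), were also higher. Nrg4, a growth factor known from brown fat, was lower in BAT by a small margin (-0.26 ± 0.11) and was not called without BAT 24 h libraries 3 or 4 or iWAT 24 h libraries 1, 2, 4 or 5 (-0.26 to -0.22). It had been higher at 22 °C (0.83, change -1.10 ± 0.16, adjusted p = 0.000154). By the rule for the largest differences, Cpne5 (71.1 ± 25.1 CPM in BAT and 0.527 ± 0.288 CPM in iWAT; 7.10 ± 0.45), the carbonic anhydrase Car14 (68.005 ± 7.25 CPM in BAT and 0.621 ± 0.311 CPM in iWAT; 6.78 ± 0.47), the transporter gene Slc35f4 (6.14 ± 0.43) and the Wnt-pathway receptor Lgr6 (409 ± 10.5 CPM in BAT and 6.51 ± 2.95 CPM in iWAT; 5.98 ± 0.70) were higher. The cytochrome P450 Cyp2b10 was higher too (6.85 ± 1.00), but 1 library carried much of it, with 65.3, 58.0, 566, 20.9 and 7.87 CPM in BAT libraries 1 to 5. Its log2 difference was 4.94 without BAT library 3, 7.94 without iWAT library 3 and 5.60 without BAT libraries 3, 4 and 5. The same rule named the muscle genes Mybpc2, Actn3, Mb and Mylpf. Mb, myoglobin, had 29.4, 21.5, 71.4, 103 and 194 CPM in the BAT libraries. Without BAT libraries 3, 4 and 5 the 4 genes had log2 differences of 3.34, 1.83, 6.05 and 1.195, of which only that of Mb was called. Without BAT library 5 alone, Mybpc2, Actn3 and Mylpf differed by 8.25, 7.78 and 5.38.

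Lower in BAT by that rule were, beside the Hox genes, Nnat and Ffar2 and the serum albumin gene Alb (0.133 ± 0.144 CPM in BAT and 29.5 ± 3.98 CPM in iWAT; -7.71 ± 0.38). Also lower were the phosphoprotein Spp1 (-5.61 ± 0.81, -6.31 without BAT library 5) and the neutrophil protease Prtn3 (-5.72 ± 0.67, -6.32 without BAT library 3 and -6.68 without BAT libraries 3, 4 and 5). The major urinary protein genes Mup7 (-7.63 ± 0.81, and -8.59 without BAT library 1 or -6.44 without BAT libraries 3, 4 and 5), Mup17 (-5.29 ± 0.63), Mup13 (-5.21 ± 0.57) and Mup14 (-5.19 ± 0.62) were lower in BAT. As near-identical copies of 1 family they can share reads. Car3, a carbonic anhydrase among the 10 highest genes of iWAT per length, stood at 262 ± 79.1 FPKM in BAT and 6008 ± 937 FPKM in iWAT (-4.08 ± 0.28).

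Creatine and calcium cycling, candidate routes of heat without UCP1, differed in both directions. Of 22 genes 15 were higher in BAT and 5 lower (median 1.77), against 8 and 6 (median 0.27) without BAT libraries 3, 4 and 5. Ckb, the brain-type creatine kinase, did not follow the muscle markers, with 599.8, 402, 544, 418 and 315 CPM in the BAT libraries, against 33.8, 28.8, 24.0, 22.5 and 35.2 CPM in the iWAT libraries (3.98 ± 0.21; 4.10 without those 3 libraries). At 22 °C Ckb had averaged 31.3 ± 7.88 CPM in BAT and 14.8 ± 2.45 CPM in iWAT, and the depot difference was larger at 24 h by 2.91 ± 0.28 (adjusted p = 3.37e-07). Alpl, a phosphatase proposed to act on phosphocreatine, was higher in BAT (3.53 ± 0.26), and the creatine synthesis gene Gatm was lower (-2.24 ± 0.36). The calcium pump Atp2a2 (1.45 ± 0.14) and the release channels Itpr1 (1.73 ± 0.13) and Itpr2 (2.39 ± 0.16) were higher in BAT.

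Matrix, progenitor and fibroblast genes differed between the depots as well, and which cells made their RNA was not tested. Of 55 collagen and matrix genes 5 were higher in BAT and 33 lower (median -0.89), and of 33 progenitor and fibroblast genes 1 and 20 (median -1.30). Col3a1, a fibrillar collagen, was measured at 235, 235, 179.8, 233 and 227 CPM in the BAT libraries, against 733, 1287, 650.2, 1119 and 1137 CPM in the iWAT libraries (-2.15 ± 0.22). Col1a1 (-1.38 ± 0.25), Col6a1 (-1.83 ± 0.17), Col15a1 (-2.90 ± 0.27) and Col5a3 (-3.10 ± 0.26) were lower, and the basement membrane genes Col4a2 (0.80 ± 0.15) and Lamb3 (2.73 ± 0.24) higher. The progenitor receptor Pdgfra (-1.30 ± 0.15) and the fibroblast genes Dpt (-3.50 ± 0.19), Pi16 (-1.71 ± 0.49) and Igfbp4 (-3.10 ± 0.20) were lower in BAT. The 5 progenitor markers summed to 168, 176, 164, 329 and 205 CPM in BAT libraries 1 to 5 and 181, 216, 411, 363 and 309 CPM in iWAT libraries 1 to 5, which overlapped.

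Of the vessel genes 11 of 21 were higher in BAT and 4 lower (median 0.33, and -0.07 on the FPKM scale). Pecam1, an endothelial adhesion protein, was measured at 153, 163, 183, 173 and 137 CPM in the BAT libraries, against 73.5, 82.7, 88.4, 70.5 and 80.2 CPM in the iWAT libraries (1.03 ± 0.13). At 22 °C it had stood at 125 CPM in BAT and 110.0 CPM in iWAT (change 0.85 ± 0.19, adjusted p = 0.00601). Eng (1.61 ± 0.13), the VEGF receptor Kdr (1.17 ± 0.14) and Cdh5 (1.07 ± 0.14) were higher, and Nos3, endothelial nitric oxide synthase, was lower (-1.61 ± 0.11) with Cldn5 (-1.12 ± 0.28) and Plvap (-0.87 ± 0.23). The 4 endothelial markers summed to 501 to 608 CPM in BAT and 253 to 305 CPM in iWAT, and their part in other differences was not tested. Of 21 macrophage genes 0 were higher in BAT and 15 lower (median -0.98), with Lyz2 (-1.12 ± 0.27), Mrc1 (-1.22 ± 0.24) and Cd163 (-1.07 ± 0.24). Of 16 T cell genes 0 were higher and 10 lower, and of 9 B cell genes none passed by edgeR (1 at an unadjusted p under 0.05, 0 by DESeq2).

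Nerve-associated genes were lower in BAT with exceptions. Of 17 Schwann cell and nerve genes 2 were higher and 11 lower (median -1.44), and without BAT libraries 3, 4 and 5, 6 were lower. Scn7a, a sodium channel of Schwann cells, was lower in all 5 BAT libraries, at 17.2 ± 2.72 CPM in BAT and 131 ± 12.8 CPM in iWAT (-2.94 ± 0.16). S100b, a calcium-binding protein used as a glial marker and also made by brown adipocytes in the cold, ran against the list at 77.3, 79.5, 125, 78.8 and 83.5 CPM in the BAT libraries, against 3.40, 6.50, 5.86, 4.83 and 8.21 CPM in the iWAT libraries (3.94 ± 0.24).

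Stress and acute response genes varied by group. Heat shock proteins were more often higher than lower in BAT, with 17 of 24 higher and 2 lower (median 0.65). On the FPKM scale with a pseudocount of 1 the counts were 8 and 5 (median 0.21). Hsp90ab1 (1.31 ± 0.13), the mitochondrial chaperones Hspd1 (0.94 ± 0.14) and Hspa9 (0.91 ± 0.15) and the small chaperone Hspb1 (1.84 ± 0.23) were higher. The 2 members lower by edgeR were the cold-inducible RNA-binding proteins Rbm3, at 59.0, 63.8, 85.3, 60.1 and 57.3 CPM in the BAT libraries, against 171, 193, 158, 189 and 159 CPM in the iWAT libraries (-1.42 ± 0.10), and Cirbp (-1.30 ± 0.16). In the integrated stress and unfolded protein response list 9 of 36 genes were higher and 14 lower in BAT. Its median was -0.31, and -0.39 to -0.13 without 1 library in turn. Beside it, 31.6% of all genes were higher and 32.0% lower (median -0.02), so no lean is read from the counts. The serine synthesis enzymes Phgdh (7.05 ± 3.05 CPM in BAT and 111 ± 19.9 CPM in iWAT; -3.97 ± 0.32) and Psat1 (-3.53 ± 0.28), the transcription factor Xbp1 (-1.59 ± 0.14) and Nupr1 (-1.96 ± 0.18) were lower. Herpud1 (0.76 ± 0.08) and Manf (0.72 ± 0.15) were higher. Mthfd2 (-0.998 ± 0.30) and Asns (-0.58 ± 0.14), targets of the factor ATF4, were lower in BAT and did not pass at 22 °C (0.63 and 0.28; changes -1.63 ± 0.43 and -0.86 ± 0.20, adjusted p = 0.0189 and 0.00779).

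Immediate early genes had no clear lean, with 12 of 30 higher in BAT and 8 lower (median 0.01, and -0.15 on the FPKM scale). Over all genes 31.6% were higher and 32.0% lower (median -0.02). Without BAT libraries 3, 4 and 5, 8 immediate early genes were higher and 4 lower (median -0.12). The nuclear receptor Nr4a2 (1.74 ± 0.30) and the phosphatase gene Dusp6 (1.61 ± 0.28) were higher, and Myc was lower (-1.75 ± 0.29). Of 23 clock genes 8 were higher and 5 lower (median -0.06), likewise without a clear lean beside all genes. Nfil3 (2.12 ± 0.28), Ciart (1.99 ± 0.26) and Bmal1 (1.53 ± 0.29) were higher and Per3 (-1.12 ± 0.13) and Rora (-1.23 ± 0.10) lower. In the antioxidant list 16 of 37 were higher and 11 lower (median 0.11, -0.02 with upper-quartile factors and -0.31 on the FPKM scale). The mitochondrial members Sod2 (1.80 ± 0.15), Txn2 (1.44 ± 0.14) and Prdx3 (0.95 ± 0.11) were among the higher ones, and the glutathione transferases Gsta3 (-4.09 ± 0.31) and Mgst3 (-2.98 ± 0.20) among the lower ones. Cholesterol synthesis and uptake had 9 of 29 higher and 3 lower (median 0.24, and -0.19 on the FPKM scale).

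The count of interferon-stimulated genes depended on library 4. Their mean log2 CPM was 2.80, 2.78, 3.06, 5.04 and 3.10 in BAT libraries 1 to 5 and 3.56, 3.91, 3.30, 4.86 and 3.78 in iWAT libraries 1 to 5, so that replicate 4 was the highest in both depots. Of 31 genes 2 were higher in BAT and 6 lower (median -0.19), but 23 were lower (median -1.35) without BAT libraries 3, 4 and 5, and 24 (median -1.07) without BAT library 4 alone. Irf7, a regulator of interferon genes, had 7.24, 6.43, 7.25, 32.9 and 6.29 CPM in the BAT libraries, against 29.8, 31.1, 22.8, 46.5 and 25.9 CPM in the iWAT libraries (-1.37 ± 0.32, and -2.20 without BAT library 4). The cause of the high library was not tested.

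The depot difference after 24 h was then set against that at 22 °C, to see which differences the day of cold had changed. The changes passed for 417 genes (2.96%) upward, meaning more toward BAT, and for 683 genes (4.85%) downward. This split depended on the scaling, with 546 upward and 519 downward by upper-quartile factors, and 1571 upward and 385 downward on the FPKM scale with a pseudocount of 1. At 22 °C itself 9427 genes (66.9%) differed between the depots. The total of 1100 genes (7.81%) was 702 without iWAT 22 °C library 1 and 1644 without iWAT 22 °C library 4, and 357 without BAT 24 h libraries 3, 4 and 5. The iWAT libraries at 22 °C varied in thermogenic genes, with a mean log2 CPM of the list of 3.21, 4.02, 5.04, 5.02 and 2.88 in libraries 1 to 5. The skeletal muscle genes also varied at 22 °C, with a mean log2 CPM of the list of 6.04, 2.71, 6.12, 7.44 and 7.53 in BAT libraries 1 to 5 and -2.50, 5.58, -2.25, -2.22 and -2.36 in iWAT libraries 1 to 5, so that iWAT library 2 stood apart from the other iWAT libraries. The muscle list had a median depot difference of 8.90 at 24 h against 2.52 at 22 °C. Without iWAT 22 °C library 2 the changes of Ucp1 (-3.03), Dio2 (-2.57), Fabp3 (-3.52), Cycs (-0.95) and Scd1 (-1.05) kept their direction but were not called. The part of muscle RNA in the changes was not tested. The thermogenic list had a median depot difference of 1.90 at 24 h against 3.39 at 22 °C, with 13 of 24 changes downward and 1 upward. The upward change was that of Aqp7, a glycerol channel (0.32 ± 0.10), and was not called with any 1 library left out except BAT 22 °C libraries 1 or 2, BAT 24 h library 5, iWAT 22 °C library 4 or iWAT 24 h libraries 3 or 5 (0.27 to 0.34). The respiratory chain (1.52 at 22 °C; 14 of 84 downward), the tricarboxylic acid cycle (2.11; 14 of 20), fatty acid oxidation (1.68; 12 of 31) and glucose use (1.73; 16 of 50) also had larger medians at 22 °C. Mitochondrially encoded genes had no called change (1.95 at 22 °C; 0 of 13 by edgeR, 3 at an unadjusted p under 0.05 and 0 by DESeq2). The Hox median was -0.84 at 24 h and -0.73 at 22 °C.

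**Figure D4:**
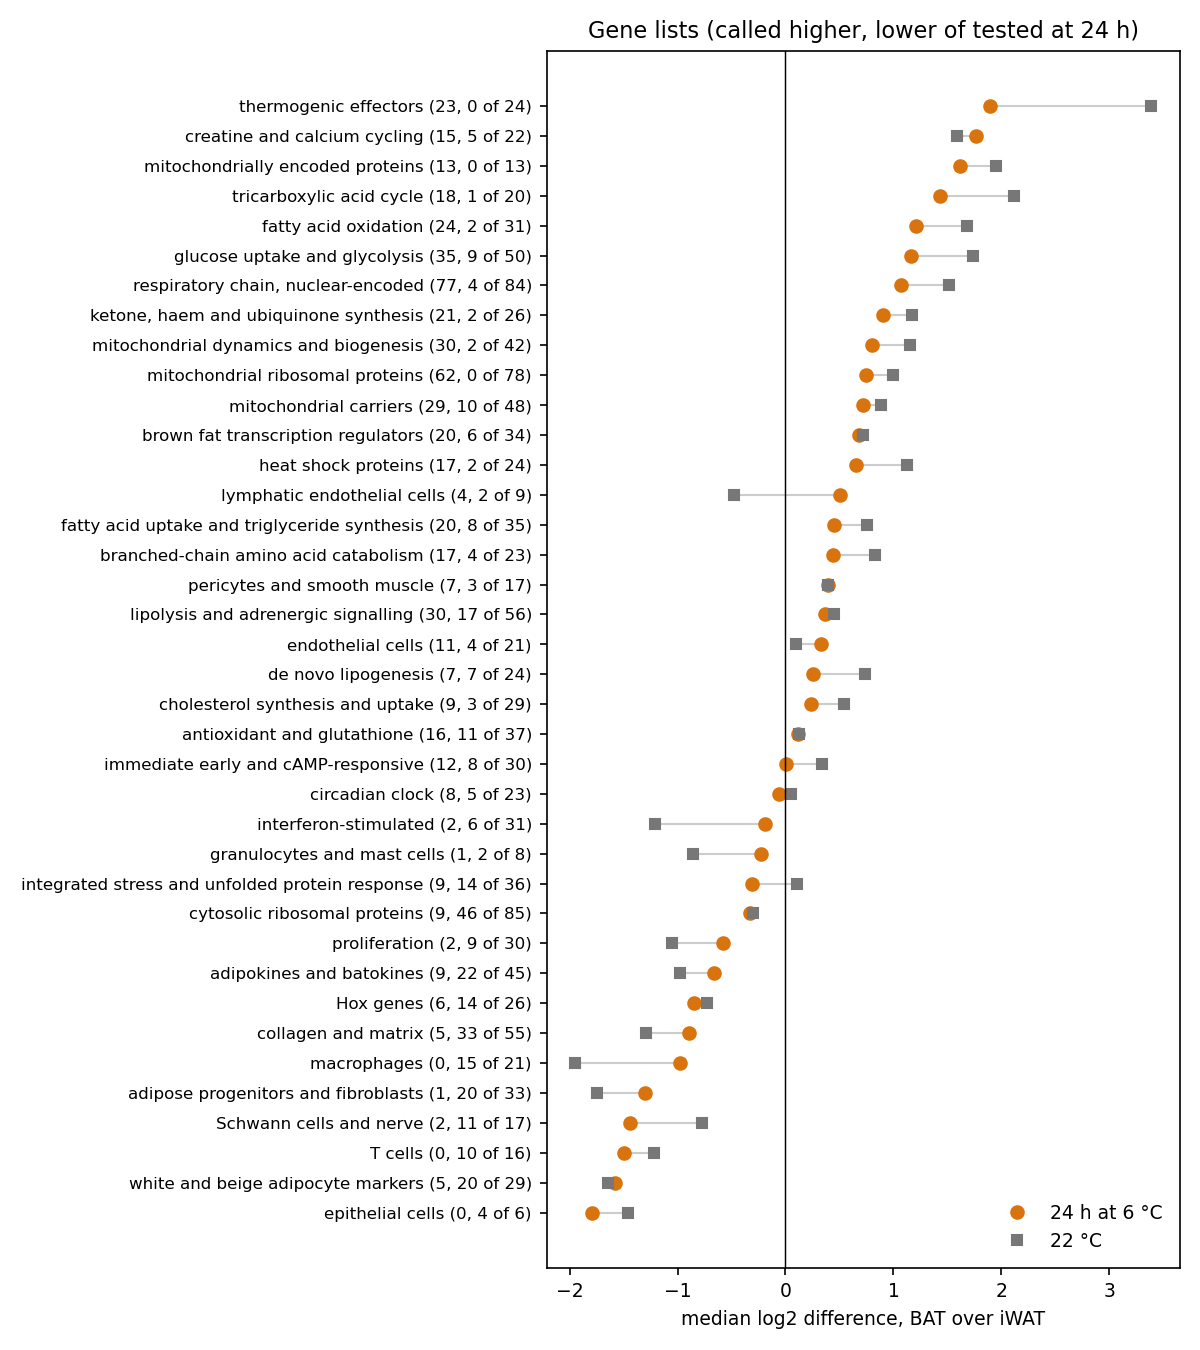
Median log2 difference of BAT over iWAT (x axis) of 38 gene lists after 24 h at 6 °C (orange circles) and at 22 °C (grey squares), with the number higher and lower in BAT at 24 h of the number tested beside each list name. The thermogenic list has a median of 1.90 at 24 h and 3.39 at 22 °C, and the list of white and beige adipocyte markers -1.57 at 24 h and -1.64 at 22 °C.

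The 10 genes of each direction were named by the rule for the largest changes. Sgk2, a kinase, averaged 83.4 CPM in BAT and 13.3 CPM in iWAT at 24 h and 18.2 CPM in BAT and 0.133 CPM in iWAT at 22 °C (change -4.58 ± 1.03, adjusted p = 0.00724, and -5.83 without iWAT 22 °C library 4). The organic anion transporter Slco4a1 (-4.14 ± 0.80), Kng2 (-3.93 ± 0.79), Fabp3 (-3.71 ± 1.06, not called at -3.52 to -3.42 without iWAT 22 °C library 2 or iWAT 24 h library 5, and -4.52 without iWAT 22 °C library 3), Fam131c (-3.58 ± 0.86, and -5.78 without iWAT 22 °C library 3), Cend1 (-3.40 ± 0.61) and Lgr6 (-3.24 ± 0.99) followed, and all 6 were higher in BAT at 24 h. The change of Lgr6 was not called with any 1 library left out except BAT 22 °C library 4, iWAT 22 °C libraries 3 or 4 or iWAT 24 h libraries 2 or 3 (-3.26 to -2.92) and was -4.60 without iWAT 22 °C library 3. On the FPKM scale with a pseudocount of 1 the changes of Fam131c (0.34) and Lgr6 (0.17) had the other sign and did not pass. Nr4a3, a nuclear receptor induced by cyclic AMP, changed side: it averaged 7.30 CPM in BAT and 15.2 CPM in iWAT at 24 h and 10.6 CPM in BAT and 2.36 CPM in iWAT at 22 °C (change -3.27 ± 0.60, adjusted p = 0.00153, and -4.03 without iWAT 22 °C library 4). Its difference at 24 h (-1.06 ± 0.41) was not called without BAT 24 h library 4 or iWAT 24 h library 4 (-1.02 to -0.80), or without BAT libraries 3, 4 and 5 together (-1.02).

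Upward changes by the rule were led by Bdh1, at 28.5 CPM in BAT and 0.0637 CPM in iWAT at 24 h and 0.665 CPM in BAT and 0.126 CPM in iWAT at 22 °C (change 6.36 ± 0.93, adjusted p = 0.000226, and 7.14 without BAT 22 °C library 5). Npr3, which clears natriuretic peptides, averaged 482 ± 134 CPM in BAT and 254 ± 164 CPM in iWAT at 24 h and 83.0 ± 18.6 CPM in BAT and 354 ± 149 CPM in iWAT at 22 °C (change 3.02 ± 0.49, adjusted p = 0.000633). Its 24 h difference (0.93 ± 0.34) came with high iWAT libraries 4 and 5, at 138, 140.1, 134, 374 and 484 CPM for libraries 1 to 5. That difference was not called without BAT 24 h library 4 or iWAT 24 h libraries 1, 2 or 3 (0.76 to 0.81). Plac8 (2.83 ± 0.79, not called at 2.22 to 2.66 without BAT 22 °C library 3 or BAT 24 h library 4), the sialic acid enzyme Cmah (2.78 ± 0.46), the chaperone partner Sdf2l1 (2.60 ± 0.36), Mal (2.39 ± 0.53), the Wnt inhibitor Dkk2 (2.37 ± 0.74), the GDNF receptor Gfra1 (2.24 ± 0.48) and heparanase, Hpse (2.22 ± 0.64), also changed toward BAT. The change of Dkk2 was not called with any 1 library left out except BAT 24 h libraries 2 or 4, iWAT 22 °C libraries 3, 4 or 5 or iWAT 24 h libraries 2 or 3 (1.99 to 2.55). That of Hpse was not called without BAT 22 °C libraries 1, 2 or 5, BAT 24 h libraries 4 or 5, iWAT 22 °C libraries 1 or 2 or iWAT 24 h libraries 1 or 2 (2.02 to 2.14). Plac8 was lower in BAT at both temperatures (-2.54 at 24 h, -5.37 at 22 °C), and its 24 h difference was -3.15 without BAT library 4 and -3.59 without BAT libraries 3, 4 and 5. Without BAT 24 h libraries 3, 4 and 5, which leaves 2 BAT libraries at 24 h, 15 of the 33 changes given by name were not called (Aqp7, Cycs, Dio2, Dkk2, Fabp3, Fam131c, Hpse, Irf4, Lgr6, Mal, Plac8, Scd1, Slc25a1, Ucp1 and Uqcrfs1).

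**Figure D5:**
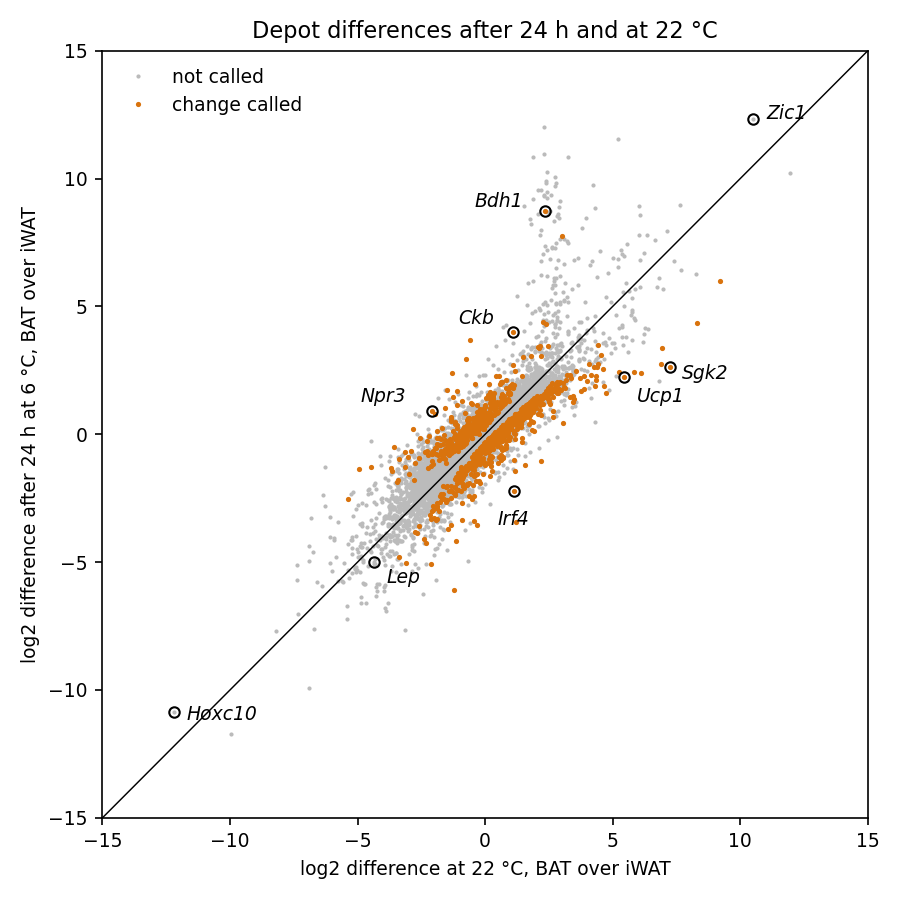
Log2 difference of BAT over iWAT after 24 h at 6 °C (y axis) against that at 22 °C (x axis) for the 14089 genes tested; the line marks equal differences, and genes without counts in a depot are drawn at fitted values that depend on the prior count. Orange points are the 1100 genes whose differences changed by the test, and named points are genes of the text. Ucp1, Sgk2 and Irf4 lie under the line, and Bdh1, Ckb and Npr3 above it.

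Against 6 h in the cold, fewer depot differences had changed: 272 genes (1.93%) upward and 171 (1.21%) downward. On the FPKM scale with a pseudocount of 1 the split was 215 upward and 214 downward. The sum of 443 was 726 without iWAT 6 h library 4, 694 without BAT 6 h library 1, 280 without BAT 6 h library 2, 269 without iWAT 6 h library 1, 249 without BAT 24 h library 1, 244 without iWAT 24 h library 4 and 180 without BAT 24 h libraries 3, 4 and 5. The downward count alone was 108 without BAT 24 h library 4 and 108 without BAT 6 h library 5. None of the 24 thermogenic genes changed by edgeR (0 at an unadjusted p under 0.05, 0 by DESeq2), and Ucp1 stood at 16917 CPM in BAT and 2236 CPM in iWAT at 6 h. The heat shock genes Hsp90aa1 (change -1.50 ± 0.23, adjusted p = 0.000639) and Hspa4l (-1.34 ± 0.20) were among the downward changes. Hsp90aa1 averaged 639 CPM in BAT and 438 CPM in iWAT at 24 h and 1454 CPM in BAT and 353 CPM in iWAT at 6 h. Nr4a3 (-3.11 ± 0.58), the growth factor Fgf9 (-2.57 ± 0.57), Cend1 (-1.83 ± 0.49), Zdhhc23 (-1.59 ± 0.37), the sterol enzyme Hsd17b7 (-1.34 ± 0.28), Vat1l (-1.30 ± 0.27), Map1b (-1.26 ± 0.26) and Myl4 (-1.19 ± 0.22) completed that list. Upward, the chemokine Cxcl10 (2.32 ± 0.48), Slc35f4 (2.32 ± 0.60, not called at 2.07 to 2.30 without BAT 24 h library 1, iWAT 24 h library 2 or iWAT 6 h libraries 2 or 3), Nradd (1.36 ± 0.32), Wdr6 (1.36 ± 0.16), Pecr (1.34 ± 0.23) and Tinag (1.33 ± 0.31) were among the largest. Selenbp1 (1.32 ± 0.24), Zfyve21 (1.32 ± 0.21), the cholesterol exporter Abcg1 (1.31 ± 0.25) and Gstm7 (1.31 ± 0.33, not called at 1.12 to 1.22 without BAT 24 h library 1 or iWAT 6 h library 1) followed. The change of Cend1 was not called with any 1 library left out except BAT 24 h libraries 1 or 3, BAT 6 h libraries 1 or 5, iWAT 24 h libraries 2 or 3 or iWAT 6 h libraries 3, 4 or 5 (-1.84 to -1.61). Without BAT 24 h libraries 3, 4 and 5, 8 of the 20 changes given by name were not called (Cend1, Fgf9, Gstm7, Hsd17b7, Slc35f4, Tinag, Vat1l and Zdhhc23). That fit kept all 6 h libraries, where 23 of 24 skeletal muscle genes were also higher in BAT (median 6.99). It is therefore not a comparison free of muscle RNA. Both comparisons use the same 24 h libraries, so genes found in both are not separate evidence.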

How the data were processed

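Per the labels' protocols, polyA RNA was made into libraries with the NEBNext Ultra II kit. Per the submitters' processing notes, HISAT2, HTSeq and the build GRCm39 were used, with no versions given, and whether counting used strand is not given in the sources used here. The authors deposited counts per gene and FPKM for 21652 genes in separate tables, and the counts were the unit tested. Symbols are those of the deposited count table (495 genes had none), and 21541 of its Ensembl IDs matched a reference table of gene names. All 30 libraries entered 1 edgeR 4.0.16 quasi-likelihood fit (R 4.3.3) with TMM factors, 1 mean per group and a minimum count of 10 (filterByExpr), which kept 14089 genes. CPM are deposited counts per 1000000 of the TMM-scaled total. The deposited FPKM were used for levels per length and, as log2(FPKM + 1) or + 0.1, with limma 3.58.1 as an alternative, so fold changes there understate low genes. Also tried were upper-quartile and RLE factors, DESeq2 1.42.0, other filters, mitochondrially encoded genes left out, only the groups compared, a replicate block, glmTreat, each library left out in turn, and BAT libraries 3, 4 and 5 left out together. Intervals and the floor of 3 counts cover counting error only. The fitting code was tested on simulated counts. Groups came from the tissue and treatment labels. The members and the 41 gene lists were chosen with earlier results of these data known, and several lists share genes.

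Genes were named by rule: the 12 largest differences in each direction among called genes without overlap and with at least 5 CPM in a group (predicted genes left out), up to 6 called members per list and up to 3 of the other sign, members of lists of at most 40 genes whose role is described, all Hox genes and isoform pairs, the 10 largest changes in each direction, a fixed list of fat marker genes, and the 10 highest FPKM per depot. In lists of over 40 genes, these were named for their role after their values were seen: Adra1a, Adrb1, Atp5f1b, Atp5pf, Col1a1, Col3a1, Col4a2, Col6a1, Cycs, Eno1, Gapdh, Gnai1, Gnas, Igf1, Lipe, Mgll, Nampt, Ndufv1, Nrg4, Opa1, Pkm, Plin2, Plin4, Pnpla2, Slc16a1, Slc25a42, Slc25a51, Slc2a4 and Uqcrfs1. Some genes that the rule names are not reported here. No pair of libraries within a depot at 24 h agreed within sampling noise (chi-square per degree of freedom 28.3 to 95.3 over 20 pairs).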

Additional observations from a re-analysis of the deposited data

Results flagged for a closer look

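Single libraries stood apart in 58 of 700 sets of 5 libraries, made of the 311 genes and 39 lists described here in each depot (Dixon's test, in which chance marks about 1 in 20 groups). Each value is the CPM of the library that stood apart, with that of the nearest other library in brackets. BAT library 1 was high for Cox6a1 874 (659), Cox7a2l 251 (205), Hoxd4 1.14 (0.515), Kcnk3 1046 (835), Mrpl34 114 (91.5), Txn2 532 (444) and mt-Atp8 152 (39.3). BAT library 2 was high for Hk2 689 (538), and low for Hcar1 2.89 (6.50). BAT library 3 was high for Cirbp 20.4 (14.3), Cyp2b10 566 (65.3), Herpud1 121 (96.8), Prdx3 663 (587), Rbm3 85.3 (63.8) and S100b 125 (83.5), and low for Ciart 18.7 (24.8) and Col3a1 179.8 (227). BAT library 4 was high for Hoxc9 0.0341 (0), Irf7 32.9 (7.25), Mki67 1.81 (0.555) and Plac8 4.19 (1.58), and low for Esrrg 46.5 (60.6). BAT library 5 was high for Ckmt2 72.6 (18.5), Hoxc10 0.0344 (0), Mybpc2 109.9 (31.6), Mylpf 248 (62.7) and Trp63 0.756 (0.277), and low for Col4a2 494 (577). iWAT library 1 was high for Esrra 129 (99.4) and Uqcrc2 504 (427), and low for Scn7a 109 (133). iWAT library 3 was high for Cyp2b10 3.74 (0.909), Ebf2 58.3 (44.9), Hoxc4 8.25 (6.03), Pdpn 9.46 (4.71) and Tmem26 0.917 (0.485), and low for Acot11 30.9 (54.3), Nrg4 110.3 (130.1) and Plin2 513 (883). iWAT library 4 was high for Alb 36.4 (28.9), and low for Ckmt2 0 (0.0224). iWAT library 5 was high for Bmp8b 0.862 (0.336), Fabp3 905 (497), Fam131c 3.72 (1.79), Fgf9 2.80 (1.21), Hcar2 53.8 (44.9), Herpud1 64.3 (58.0), Hoxd8 14.1 (11.02), Lamb3 5.41 (3.20), Phgdh 146 (107) and Sncg 389.9 (233). The mean log2 CPM of a list stood apart for the T cells list in BAT library 4 (-0.76, nearest -1.82), the fatty acid uptake and triglyceride synthesis list in iWAT library 3 (6.97, nearest 7.16), the heat shock proteins list in BAT library 2 (6.19, nearest 6.49), the interferon-stimulated list in BAT library 4 (5.04, nearest 3.10), the mitochondrial ribosomal proteins list in BAT library 1 (6.06, nearest 5.85), the thermogenic effectors list in BAT library 1 (8.75, nearest 8.62) and the white and beige adipocyte markers list in iWAT library 5 (5.84, nearest 5.47).

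The depot difference itself differed between housing conditions by edgeR's test for these named genes, given as the change in log2 difference. At 24 h minus 22 °C the changes were Aqp7 0.32, Asns -0.86, Bdh1 6.36, Cend1 -3.40, Ckb 2.91, Cmah 2.78, Cycs -0.99, Dio2 -2.77, Dkk2 2.37, Fabp3 -3.71, Fam131c -3.58, Gfra1 2.24, Hcar1 -1.91, Hcar2 -1.91, Hoxa4 -1.20, Hpse 2.22, Irf4 -3.37, Kng2 -3.93, Lgr6 -3.24, Mal 2.39, Mthfd2 -1.63, Npr3 3.02, Nr4a3 -3.27, Nrg4 -1.10, Pecam1 0.85, Plac8 2.83, Scd1 -1.11, Sdf2l1 2.60, Sgk2 -4.58, Slc25a1 -1.80, Slco4a1 -4.14, Ucp1 -3.20 and Uqcrfs1 -0.76. At 24 h minus 6 h they were Abcg1 1.31, Cend1 -1.83, Cxcl10 2.32, Fgf9 -2.57, Gstm7 1.31, Hsd17b7 -1.34, Hsp90aa1 -1.50, Hspa4l -1.34, Map1b -1.26, Myl4 -1.19, Nr4a3 -3.11, Nradd 1.36, Pecr 1.34, Selenbp1 1.32, Slc35f4 2.32, Tinag 1.33, Vat1l -1.30, Wdr6 1.36, Zdhhc23 -1.59 and Zfyve21 1.32.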

How the results depend on the processing

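Between depots at 24 h the counts of genes higher and lower moved by over 1.5 times only on the FPKM scale (2134 and 7800 with a pseudocount of 1, 2177 and 7921 with 0.1) and against a null of a log2 difference of 1 (glmTreat; 948 and 1185). Leaving out 1 library gave 4126 to 4411 higher and 4260 to 4445 lower. Changes since 22 °C numbered 1571 upward and 385 downward (FPKM, pseudocount 1), 1076 and 371 (pseudocount 0.1), 120 and 237 without BAT libraries 3, 4 and 5, and 263 to 541 upward and 439 to 1103 downward without 1 library. Changes since 6 h numbered 414 and 347 (DESeq2), 129 and 88 (only the groups compared), 125 and 55 without BAT libraries 3, 4 and 5, and 147 to 415 and 94 to 354 without 1 library. The cause of these shifts was not tested, and the fits that leave libraries out also hold fewer libraries.

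The list medians that moved by more than the spread between libraries were, on the FPKM scale with a pseudocount of 1, Hox genes -0.57, Schwann cells and nerve -0.45, T cells -0.24, adipokines and batokines -0.45, adipose progenitors and fibroblasts -0.79, antioxidant and glutathione -0.31, branched-chain amino acid catabolism -0.0071, brown fat transcription regulators 0.17, cholesterol synthesis and uptake -0.19, circadian clock -0.31, creatine and calcium cycling 0.53, cytosolic ribosomal proteins -0.74, de novo lipogenesis -0.11, endothelial cells -0.070, epithelial cells -0.34, fatty acid oxidation 0.77, fatty acid uptake and triglyceride synthesis 0.036, glucose uptake and glycolysis 0.66, heat shock proteins 0.21, ketone, haem and ubiquinone synthesis 0.44, lipolysis and adrenergic signalling -0.041, mitochondrial carriers 0.19, mitochondrial dynamics and biogenesis 0.35, mitochondrial ribosomal proteins 0.29, mitochondrially encoded proteins 1.198, pericytes and smooth muscle -0.042, respiratory chain genes 0.63, skeletal muscle 2.10, thermogenic effectors 1.46, tricarboxylic acid cycle 0.98 and white and beige adipocyte markers -0.92. With a pseudocount of 0.1 they were Hox genes -1.19, Schwann cells and nerve -0.98, antioxidant and glutathione -0.32, branched-chain amino acid catabolism -0.0073, brown fat transcription regulators 0.23, cholesterol synthesis and uptake -0.19, circadian clock -0.42, cytosolic ribosomal proteins -0.76, de novo lipogenesis -0.13, endothelial cells -0.10, epithelial cells -1.25, fatty acid oxidation 0.77, fatty acid uptake and triglyceride synthesis 0.036, glucose uptake and glycolysis 0.71, heat shock proteins 0.21, integrated stress and unfolded protein response -0.53, ketone, haem and ubiquinone synthesis 0.47, lipolysis and adrenergic signalling -0.069, mitochondrial carriers 0.28, mitochondrial dynamics and biogenesis 0.36, mitochondrial ribosomal proteins 0.31, mitochondrially encoded proteins 1.198, pericytes and smooth muscle -0.053, respiratory chain genes 0.64, skeletal muscle 3.87, thermogenic effectors 1.48, tricarboxylic acid cycle 0.99 and white and beige adipocyte markers -1.09. Upper-quartile factors gave antioxidant and glutathione -0.017, branched-chain amino acid catabolism 0.31, brown fat transcription regulators 0.55, endothelial cells 0.20, fatty acid uptake and triglyceride synthesis 0.32, ketone, haem and ubiquinone synthesis 0.78, lipolysis and adrenergic signalling 0.24, mitochondrial carriers 0.59, mitochondrial dynamics and biogenesis 0.67 and tricarboxylic acid cycle 1.30, no filter gave Schwann cells and nerve -0.96, epithelial cells -1.21 and mitochondrial carriers 0.61, a filter of 1 CPM in 5 libraries gave epithelial cells -1.55, and the fit without BAT libraries 3, 4 and 5, chosen after seeing the data, gave adipokines and batokines -0.99, brown fat transcription regulators 0.77, creatine and calcium cycling 0.27, glucose uptake and glycolysis 1.00, integrated stress and unfolded protein response -0.54, interferon-stimulated -1.35, skeletal muscle -0.26 and white and beige adipocyte markers -1.86. Without 1 library in turn, list medians that moved by more than the spread between libraries, by over 1.5 times or in sign ranged as follows: adipokines and batokines -0.87 to -0.57, antioxidant and glutathione 0.07 to 0.18, brown fat transcription regulators 0.56 to 0.76, cholesterol synthesis and uptake 0.10 to 0.27, circadian clock -0.10 to -0.01, de novo lipogenesis 0.09 to 0.39, granulocytes and mast cells -0.36 to -0.05, immediate early and cAMP-responsive -0.08 to 0.33, integrated stress and unfolded protein response -0.39 to -0.13, interferon-stimulated -1.07 to 0.08, lipolysis and adrenergic signalling 0.32 to 0.45 and proliferation -0.87 to -0.36. The mitochondrial share ranged over 24.4 to 24.6% in BAT and 13.1 to 13.7% in iWAT.

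Of 311 named genes, 265 kept their status as called or not called between depots in every alternative but glmTreat, with 1 direction where called. The call was lost in at least 1 alternative for 30 genes. Of 33 and 20 named changes since 22 °C and 6 h, 15 and 12 kept theirs. Direction was compared only where a gene was called in the main fit, the alternative or both. Direction reversed for Cox6a2 without BAT libraries 3, 4 and 5 (-2.69), and on the FPKM scale for Lpl (-0.067 with either pseudocount), Pnpla2 (-0.31 with either), and, with a pseudocount of 1, for the changes of Fam131c (0.34) and Lgr6 (0.17), for all of which the cause was not tested. Without BAT libraries 3, 4 and 5 the log2 difference was -2.21 for Irf7 and -4.94 for Trp63, Abcg1 (-0.56) passed, and Nrg4 (-0.24) and Dkk2 (-1.28) did not.

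BAT and iWAT share replicate numbers, which no label ties to an animal. Same-numbered libraries deviated together at 24 h with correlations of 0.132, 0.0920, 0.101, 0.342 and 0.0820, each the highest with its own number, a hint from the data. They did not all exceed 0.1, so the numbers were not taken to pair the libraries. At 6 h the correlations were 0.260, 0.008, 0.084, 0.157 and -0.065. At 22 °C they were 0.001, -0.534, 0.062, -0.012 and -0.166. In neither of these conditions was each the highest with its own number, and the block counts of changes use these numbers too. With the replicate block, 4585 genes were higher and 4663 lower at 24 h, 592 and 1035 changed since 22 °C, and 473 and 439 since 6 h. Of the 31 interferon-stimulated genes the block gave 2 higher and 16 lower (median -0.53).

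Depth limits genes with few counts, such as Tbx1, Tmem26 and the T and B cell genes, and intervals from counts cover counting error only. Whether muscle reached the BAT samples in dissection was not tested, and neither was the part of other cell types in the depot differences.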

Other observations

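Gene groups not described above differed between BAT and iWAT at 24 h as follows, by edgeR's adjusted p over all genes. In ketone, haem and ubiquinone synthesis 21 of 26 genes were higher in BAT and 2 lower (median 0.91). Among the haem genes the erythroid isoform of the first enzyme, Alas2, averaged 16.6 ± 4.56 CPM in BAT and 3.87 ± 0.543 CPM in iWAT (2.10 ± 0.21). Fech, which inserts the iron, was higher in BAT (0.67 ± 0.06), and Ppox, an earlier step, was lower (-0.58 ± 0.10). Of the ketone genes Acat1 (1.09 ± 0.11) and Oxct1 (0.51 ± 0.09), which act in ketone use, were higher. Among 17 pericyte and smooth muscle genes 7 were higher in BAT and 3 lower (median 0.40). The pericyte genes Rgs5 (0.91 ± 0.13) and Kcnj8 (1.19 ± 0.12) were higher, and the adhesion molecule Mcam averaged 26.2 ± 4.94 CPM in BAT and 157 ± 36.9 CPM in iWAT (-2.58 ± 0.17). The contractile genes Acta2 (0.47 ± 0.25), Myh11 (-0.27 ± 0.23) and Tagln (0.11 ± 0.20) did not pass.

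Among 30 proliferation genes 2 were higher in BAT and 9 lower (median -0.58 at 24 h and -1.05 at 22 °C). Mki67, a marker of cycling cells, averaged 0.747 ± 0.597 CPM in BAT and 2.77 ± 2.24 CPM in iWAT (-1.87 ± 0.55, -2.51 without BAT library 4, -1.26 without iWAT library 4 and -2.57 without BAT libraries 3, 4 and 5). Cdk1, the mitotic kinase, averaged 0.278 ± 0.217 CPM in BAT and 1.31 ± 0.364 CPM in iWAT (-2.19 ± 0.50). Of 6 epithelial genes tested 0 were higher and 4 lower, among them the estrogen receptor Esr1, which is not limited to epithelium, at 23.8 ± 1.91 CPM in BAT and 97.7 ± 13.3 CPM in iWAT (-2.04 ± 0.13), and Trp63, at 0.316 ± 0.255 CPM in BAT and 5.03 ± 1.17 CPM in iWAT (-3.95 ± 0.36, -4.56 without BAT library 5 and -4.94 without BAT libraries 3, 4 and 5). Of 9 lymphatic genes 4 were higher and 2 lower, with the receptor Flt4 higher (1.34 ± 0.18) and podoplanin, Pdpn, lower (-1.81 ± 0.33). Of 8 granulocyte and mast cell genes 1 was higher and 2 lower, the lower ones being Kit, a receptor of mast cells (-1.33 ± 0.22), and Elane, a neutrophil protease.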
